A study of Mus musculus with 20 samples.

Results

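The mechanosensitive ion channels described here are 9 genes, Piezo1, Piezo2, Trpv4, Trpv2, Trpc1, Trpm7, Kcnk2, Tmem63a and Tmem63b, chosen by name for what their proteins do and found by symbol among the 51789 genes of the deposited expression table. They were followed through 20 RNA libraries from the intervertebral discs of BL6 mice killed at 24 months of age. From 18 months on, for 6 months, the mice had weekly intraperitoneal injections of DMSO (vehicle) or of MDL-800 in the same amount of DMSO, so both arms carry the solvent. MDL-800 is a small molecule described as an activator of SIRT6, a chromatin deacylase. The soft center of the disc, the nucleus pulposus (NP), and its lamellar outer part, the annulus fibrosus (AF), were dissected under a microscope. Each tissue and treatment is represented by 5 libraries, which makes 4 groups. Libraries carry the number in their sample title. The titles speak of cells and the protocol of whole dissected tissue, and neither the sex of the mice nor whether each library came from its own animal is stated. The p-values therefore measure the spread between these samples.

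Disc cells live under compression, swelling pressure and stretch, and channels in the plasma membrane are one of the means by which such cells sense load. PIEZO proteins open directly when the membrane is stretched, TRPV4 responds to osmotic and mechanical stimuli in cartilage, TREK potassium channels carry a stretch-activated outward current, and the TMEM63 proteins belong to the family of osmotically gated OSCA channels. Entry of calcium through several of them feeds calmodulin and calcineurin signalling, and load is also read out by the transcription cofactors YAP and TAZ.

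On the mm10 mouse build, as annotated by GENCODE, all 9 are protein-coding genes. Piezo1 lies at chr8:122481698-122551329, Trpv4 at chr5:114622152-114658421 and Trpm7 at chr2:126791565-126876230. Trpv2 lies at chr11:62574486-62600515, Trpc1 at chr9:95705082-95750375 and Kcnk2 at chr1:189207930-189402273. Tmem63a lies at chr1:180942344-180975112 and Tmem63b at chr17:45660171-45686905. Trpv2 and Tmem63a are on the plus strand and the others on the minus strand. Exons of Piezo1 share 2441 bases with Ctu2 on the other strand (mean level 4.83), those of Kcnk2 share 604 with the antisense gene A430027H14Rik (2.09), and those of Tmem63b share 106 with Mrpl14 (22.2). The library kit keeps strand, but whether reads were assigned by strand is not given in the sources used here, so reads from those stretches cannot be told apart and these 3 levels are uncertain to that extent.

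Kcnk2, Trpc1 and Trpv2 were among the members whose NP and AF ranges stood apart under both treatments, and the bases upstream of their outermost annotated starts, free of annotated exons, are shown because they differ in composition. They come from RefSeq on GRCm38.p6, 5′ to 3′ on the gene's strand, from chr1:189402274-189402523 for Kcnk2, chr9:95750376-95750598 for Trpc1 and chr11:62574236-62574485 for Trpv2. Capitals mark the TEAD motif (GGAATG, read on the other strand) in Kcnk2 and the GC box (GGGCGG, read on the other strand) in Trpc1.
Kcnk2: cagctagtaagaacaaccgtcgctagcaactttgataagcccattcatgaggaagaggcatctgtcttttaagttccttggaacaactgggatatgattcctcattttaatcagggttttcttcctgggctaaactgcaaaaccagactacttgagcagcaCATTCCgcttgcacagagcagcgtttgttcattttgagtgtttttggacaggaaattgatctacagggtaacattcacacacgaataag
Trpc1: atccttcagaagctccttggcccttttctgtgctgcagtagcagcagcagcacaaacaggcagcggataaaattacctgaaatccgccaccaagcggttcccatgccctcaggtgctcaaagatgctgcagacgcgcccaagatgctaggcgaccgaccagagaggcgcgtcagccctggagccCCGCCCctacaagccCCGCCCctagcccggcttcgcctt
Trpv2: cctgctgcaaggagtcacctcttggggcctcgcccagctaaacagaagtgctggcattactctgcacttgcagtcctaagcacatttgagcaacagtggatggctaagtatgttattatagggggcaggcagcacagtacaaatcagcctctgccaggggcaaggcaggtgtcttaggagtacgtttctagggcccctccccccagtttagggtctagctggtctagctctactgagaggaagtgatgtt
The Trpv2 window holds 2 CpG dinucleotides in 250 bases, an observed to expected ratio of 0.11, which lies at percentile 16.8 of 32851 RefSeq windows of that length. The 250-base Trpc1 window, of which the 223 bases before the annotated start are printed, holds 17 CpG and has a ratio of 0.72 (percentile 74.9). Kcnk2 has a ratio of 0.44 at the start shown and 0.12, 0.85 and 0.96 at the 3 other starts in the table, which lie 58081 to 58920 bases inside the gene. Which start was used in these tissues was not measured. Over 250 bases on both strands the TEAD motif occurs in 12.6% and the GC box in 32.7% of all windows, and a match is a description of letters only. Windows of 8 of the 9 members were in the table searched. The windows of Piezo1, Trpv4, Trpm7, Tmem63a and Tmem63b had ratios between 0.75 and 1.15, above the median of 0.37 over all windows.

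Levels are given as scaled FPKM, the authors' fragments per kilobase of transcript, corrected for library depth, after division by a factor for each library (0.933 to 1.062). FPKM is per length, so members are set beside each other here. It does not correct for GC content, which differs between members, or for the exons shared with other genes. In NP vehicle, Tmem63a was the most abundant at 54 ± 3.73 (SD, n = 5) and its 5 libraries did not overlap those of Trpm7 at 36.2 ± 5.51. Kcnk2 (28.4) and Tmem63b (26.9) followed, and their order was the same in only 3 of 5 libraries. Trpv4 (13.5), Trpc1 (12.6) and Piezo1 (11.7) formed a lower step whose ranges overlapped among themselves but not with that of Tmem63b. Trpv2 (0.61) and Piezo2 (0.116) were last, and their ranges overlapped each other. In AF vehicle the top was again Tmem63a (41.2) and Trpm7 (30.3), which overlapped there. Trpv4 came next in AF vehicle at 23.8, then Tmem63b at 16.4 and Piezo1 at 16, and the lower end held Kcnk2 (9.27), Trpv2 (6.73), Piezo2 (6.52) and Trpc1 (4.95). Every pair of neighbours in the AF vehicle order overlapped. Summed over the 9 members, the level was 184.0 ± 9.53 in NP vehicle and 155.2 ± 18.4 in AF vehicle (SD, n = 5).

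**Figure D1:**
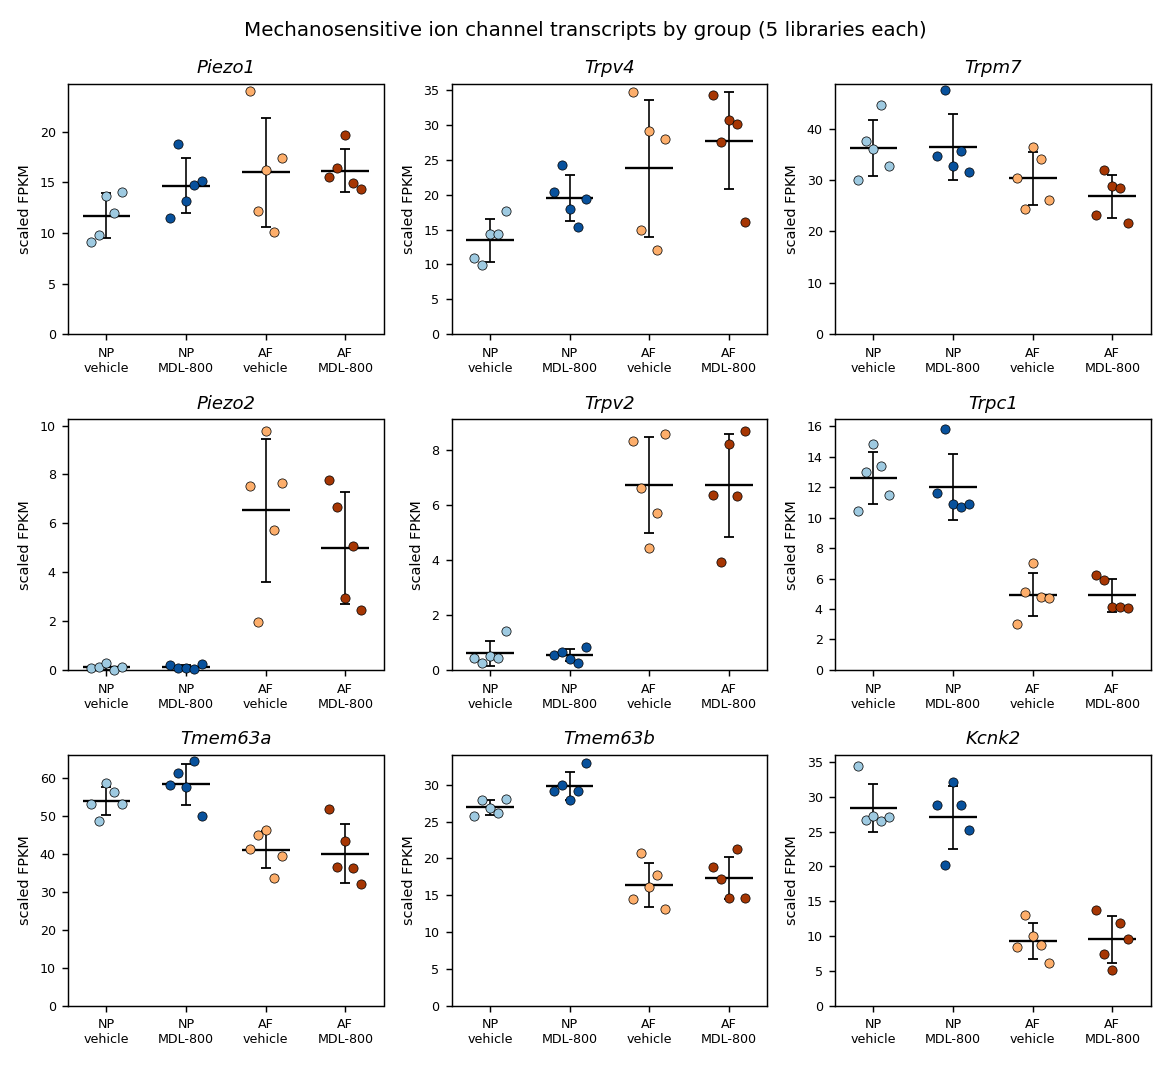
Scaled FPKM (linear axes from 0) of each channel gene in the 4 groups. Points are libraries, horizontal bars are means and error bars are SD over 5 libraries. Piezo2 and Trpv2 are near 0 in NP, Trpc1, Kcnk2 and Tmem63b are higher in NP, and the 2 treatment groups of a tissue overlap for every gene plotted.

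The first comparison asked how NP and AF of vehicle-treated old mice differ in these channels. Kcnk2, Trpc1, Tmem63b and Tmem63a were higher in NP, and Piezo2 and Trpv2 were lower. Piezo1, Trpv4 and Trpm7 did not pass the threshold (limma on log2(scaled FPKM + 1), Benjamini-Hochberg adjusted p under 0.05 over 16383 genes). The 6 of 9 members called compare with 55.7% of all genes tested, 21.8% higher and 33.9% lower in NP, so being called between these tissues is common. The median difference of the 9 was 0.25 on the log2 scale against -0.08 for all genes tested. The same 6 members were those whose groups of 5 did not overlap, against 41% of genes. Piezo2 reached 1 FPKM in 0 and Trpv2 in 1 of 10 NP libraries, so both passed the filter on low values through AF, and a gene that enters the test in that way had to differ.

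Piezo1, the broadly expressed PIEZO channel that opens with membrane tension, read 9.07, 9.75, 13.6, 12 and 14 in libraries 1, 2, 3, 5 and 6 of NP vehicle. The AF vehicle set, 8, 9, 10, 12 and 13, gave 24, 12.2, 16.2, 10.1 and 17.4. AF libraries 9 and 12 lay within the NP range and the other three lay above it. The log2 difference, NP minus AF, was -0.38 with SE 0.21 (limma adjusted p = 0.153). Without AF library 12 it was -0.52 (adjusted p = 0.0424), without AF library 8 -0.23 (0.338), with the GC trend removed -0.16 and with quantile normalization -0.12 (0.624).

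Piezo2, the PIEZO channel of touch and proprioceptive neurons, read 0.0643, 0.113, 0.283, 0 and 0.118 in NP vehicle, where the library at 0 is only listed so. In AF vehicle it read 7.52, 1.98, 9.76, 5.72 and 7.64. The lowest AF library was above every NP library. The mean was 0.116 ± 0.105 (SD, n = 5) in NP against 6.52 ± 2.92 in AF, and their ratio was 0.0178. The log2 difference was -2.64 with SE 0.30, and with a pseudocount of 0.1 in place of 1 it was -4.90. Piezo2 entered the test through AF, so no p-value is given. Under MDL-800 the NP libraries read 0.209, 0.0947, 0.0908, 0.0317 and 0.227, and the AF libraries 7.77, 6.66, 2.96, 5.06 and 2.46. Groups stood apart again, at -2.31 with SE 0.24. Piezo2 made up 0.947 ± 0.742% of the summed PIEZO level in NP vehicle and 28.4 ± 9.76% in AF vehicle (SD, n = 5). In bulk samples such as these, fewer cells of a type and less RNA per cell cannot be told apart.

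Trpv4, the osmotically and mechanically responsive channel of chondrocytes, read 10.9, 9.85, 14.4, 14.4 and 17.7 across NP vehicle, and AF vehicle gave 34.7, 15, 29.2, 12 and 28. AF values fell into a high set of libraries 8, 10 and 13 and a low pair, 9 and 12, that overlapped NP. The difference was -0.70 with SE 0.28 (limma adjusted p = 0.0553, 95% interval -1.32 to -0.08). The call sat at the threshold: without AF library 12 it was -0.91 (adjusted p = 0.00972), without AF library 9 -0.83 (0.0331), and without NP library 6 -0.80 (0.0456). In the other direction it was -0.54 (0.129) without AF library 8, and -0.47 with quantile normalization (0.156) and with the GC trend removed. AF library 12 also had the lowest Piezo1 of its group. Its slope of expression on GC content was -0.24 log2 per 10 percentage points, where the other AF vehicle libraries had 0.03 to 0.10. For that slope each gene was taken relative to its mean over the 20 libraries. AF library 9 had the highest sum of NP markers in AF, given with Kcnk2 below.

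Trpv2, a TRPV channel of immune cells and muscle, read 0.439, 0.268, 0.516, 0.424 and 1.4 in NP vehicle and 8.31, 6.63, 4.43, 5.72 and 8.58 in AF vehicle. Each AF library was above each NP library. The log2 difference was -2.27 with SE 0.21, given with no p-value for the same reason as for Piezo2. Under MDL-800 Trpv2 read 0.557, 0.652, 0.394, 0.254 and 0.834 in NP and 6.37, 3.94, 8.23, 6.33 and 8.68 in AF. The groups were again apart, at -2.30 with SE 0.19. Trpv2 took 4.03 ± 1.92% of the summed Trpv4 and Trpv2 level in NP vehicle and 23.8 ± 7.95% in AF vehicle (SD, n = 5).

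The 7 neutrophil markers (such as S100a8, Ngp and Elane) were all above 1 FPKM on average in both tissues. Their sum ran from 194.7 to 2972 in NP vehicle and from 6939 to 18132 in AF vehicle. Macrophage markers ran from 30.7 to 78.3 and from 235.9 to 482.3, and endothelial markers, 6 of 8 of them under 1 FPKM in NP vehicle, from 3.71 to 8.48 and from 52.4 to 124.3. With group means taken out, Trpv2 had r = 0.79 with the neutrophil sum, 0.68 with the red cell sum and 0.63 with the B cell sum over 20 libraries. It had a lower r with the endothelial sum (0.56) and with the macrophage sum (0.33). NP vehicle library 6 had both the highest Trpv2 (1.4) and the highest neutrophil sum (2972) of NP. The part of these cells in the Trpv2 difference was not tested.

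**Figure D2:**
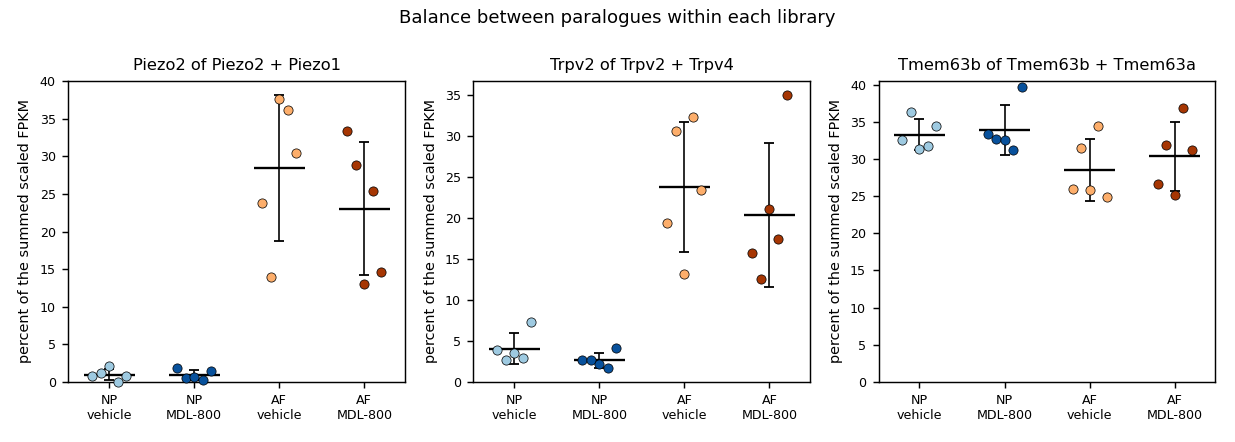
Share of 1 paralogue in the summed scaled FPKM of a pair, in percent from 0, for PIEZO, TRPV and TMEM63 genes. Points are libraries, bars are means and SD over 5. Piezo2 and Trpv2 shares are at most 2.04% and 7.36% in NP and at least 13.1% and 12.5% in AF, while Tmem63b shares overlap between the tissues.

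Trpc1, a TRPC subunit that joins other TRPC proteins and takes part in store-operated calcium entry, read 10.4, 13, 14.8, 13.4 and 11.5 in NP vehicle and 3.04, 5.13, 7.04, 4.79 and 4.75 in AF vehicle. NP libraries were all above the AF libraries. The log2 difference was 1.22 with SE 0.17 (limma adjusted p = 0.00017). Under MDL-800 it read 11.6, 15.8, 10.9, 10.7 and 10.9 in NP and 6.22, 5.93, 4.1, 4.13 and 4.08 in AF, a difference of 1.14 with SE 0.15 (limma adjusted p = 7.1e-05), with no overlap. The ratio of Trpc1 to Trpv4 within a library was 0.976 ± 0.24 in NP vehicle and 0.248 ± 0.126 in AF vehicle (SD, n = 5).

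Kcnk2, a background potassium channel of the TREK type that opens with stretch, read 34.5, 26.7, 27.2, 26.5 and 27.1 in NP vehicle. In AF vehicle it read 8.4, 13.1, 10, 8.72 and 6.13. Apart from library 1, the NP libraries lay within 1 FPKM of each other, and no AF library reached them. The mean in NP was 3.06 times that in AF, and the log2 difference was 1.55 with SE 0.17 (limma adjusted p = 3.3e-05), the largest of the 4 rises. Under MDL-800 it read 28.8, 20.2, 32.1, 28.9 and 25.3 in NP and 13.7, 7.45, 5.18, 11.9 and 9.52 in AF, at 1.46 with SE 0.22 (limma adjusted p = 0.000215), again with no overlap. The ratio of Kcnk2 to Piezo1 was 2.54 ± 0.776 in NP vehicle and 0.652 ± 0.317 in AF vehicle (SD, n = 5).

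The labelled tissues bear their markers, with NP transcripts also present in AF. The NP marker sum (Krt8, Krt18, Krt19, T, Cd24a, Car3 and Shh) ran from 25616 to 30791 in NP vehicle and from 2491 to 15087 in AF vehicle. AF library 9, at 15087, had the highest Kcnk2 (13.1) and Tmem63b (20.8) of its group, and AF library 13, at 2491, the lowest of both (6.13 and 13.1). Over the 20 libraries with group means taken out, r with the NP sum was 0.74 for Kcnk2 and 0.69 for Tmem63b, against 0.25 for Trpc1 and 0.17 for Tmem63a. On average Car3 (mean 20344 in NP vehicle, 4794 in AF vehicle) made up most of the NP marker sum in both tissues. It therefore weighs most in these r. Every gene of that list had a higher mean in NP vehicle than in AF vehicle. The cartilage marker sum ran from 1891 to 3631 in NP vehicle and from 605.4 to 2044 in AF vehicle, and had r = 0.66 with Tmem63a. Acan (mean 2238 in NP vehicle, 614.7 in AF vehicle) made up most of it in NP, and Sox9 was also higher there. Col2a1 (134.1 against 387.3), Col9a1, Matn3 and Cnmd had lower means in NP, so the list did not move one way. The part of cartilage markers in the Tmem63a difference was not tested. The part of NP tissue in the AF levels was not tested. AF markers summed to between 778.7 and 1541 in NP vehicle and between 1144 and 2928 in AF vehicle, ranges that overlap. Fmod made up most of the AF marker sum in NP and was higher in NP (mean 1001 in NP vehicle, 703.4 in AF vehicle). Tnmd (1.11 against 48.2), Thbs4 (1.43 against 83), Col1a1 (36.2 against 742.8), Kera, Mkx and Scx all had higher means in AF. The smooth muscle marker sum ran from 507.6 to 1092 in NP vehicle and from 201.9 to 539.6 in AF vehicle, ranges that overlap, and had r = 0.71 with Tmem63b. Acta2 (mean 662.7 in NP vehicle, 168.0 in AF vehicle) made up most of it in NP, and Myh11 was also higher there. Rgs5 (0.866 against 35.2) and Des (11.5 against 108.7) were lower in NP, and Cnn1 was alike (1.09 and 1.12).

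Tmem63a and Tmem63b, pore-forming proteins of the OSCA and TMEM63 family, were both higher in NP. Tmem63a read 53.1, 48.8, 58.7, 56.3 and 53.3 in NP vehicle and 41.2, 45.1, 46.2, 33.7 and 39.6 in AF vehicle. NP was above AF throughout, by a small step, with a log2 difference of 0.39 and SE 0.10 (limma adjusted p = 0.00709). Tmem63b read 25.7, 27.9, 26.8, 26.2 and 28 in NP vehicle and 14.5, 20.8, 16.1, 17.7 and 13.1 in AF vehicle. Its NP libraries lay close together and above all of AF, with a difference of 0.69 and SE 0.12 (limma adjusted p = 0.00052). Under MDL-800 both passed the threshold, Tmem63a at 0.54 (limma adjusted p = 0.00339), with 1 AF library (25, at 51.9) above the lowest NP library (22, at 50), and Tmem63b at 0.77 (0.000141), with no overlap. Tmem63b was 33.3 ± 2.09% of the pair in NP vehicle and 28.5 ± 4.19% in AF vehicle (SD, n = 5), with overlapping ranges.

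Trpm7, a magnesium and calcium channel fused to a protein kinase, read 30.1, 37.7, 36, 44.6 and 32.8 in NP vehicle and 30.5, 24.3, 36.5, 34.1 and 26.2 in AF vehicle. The tissues overlapped, at a difference of 0.25 with SE 0.14 (limma adjusted p = 0.147). Under MDL-800 it read 34.6, 47.5, 32.8, 35.6 and 31.6 in NP and 23.2, 31.9, 28.9, 28.4 and 21.7 in AF, with a single AF library just inside the NP range. There it passed the threshold at 0.43 with SE 0.14 (limma adjusted p = 0.0182). Whether the tissue difference itself depends on treatment is the same contrast as the difference of treatment effects, which for Trpm7 was 0.17 with SE 0.20 (limma adjusted p = 1). The vehicle call depended on scaling: at 0.38 (adjusted p = 0.0396) under quantile normalization and 0.43 (0.0257) under scaling to the 75th percentile it was past the threshold, settings that moved the median of all genes from -0.08 to 0.2 and 0.08.

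In the MDL-800 groups 7 of 9 members were called between tissues, against 62.8% of all genes, with 5 higher (25.6% of genes) and 2 lower in NP (37.2%), and 5 of 9 did not overlap, against 49.1%. Those called were the 6 of the vehicle comparison plus Trpm7. Piezo2 and Trpv2, the 2 lower, entered the test through AF and are also among the 5 without overlap. Trpv4 was -0.46 with SE 0.19 (limma adjusted p = 0.0546), and without AF library 30, at 16.1 the lowest AF MDL-800 value, -0.64 (adjusted p = 0.00162). Piezo1 was -0.14 with SE 0.13 (limma adjusted p = 0.381).

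**Figure D3:**
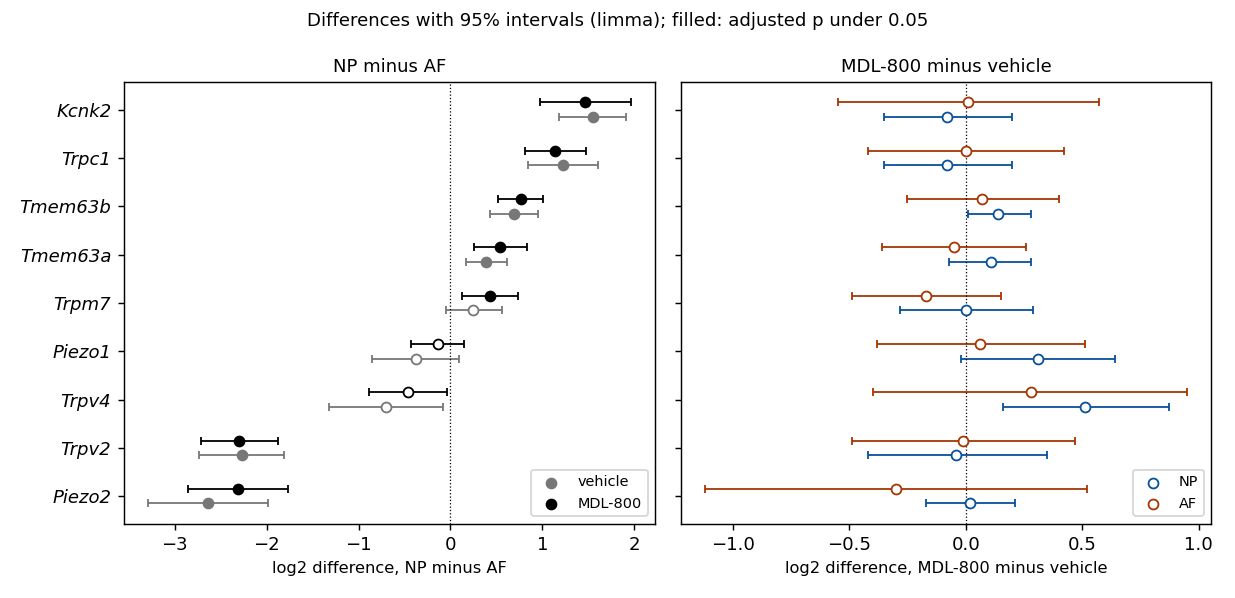
Log2 differences of each channel with 95% intervals from limma, NP minus AF (left) and MDL-800 minus vehicle (right). Filled symbols have an adjusted p under 0.05. Those of Piezo2 and Trpv2 on the left belong to genes that entered the test through AF. Tissue differences span -2.64 (Piezo2) to 1.55 (Kcnk2) under vehicle, while none of the treatment differences is filled.

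The next comparisons asked whether MDL-800 changed the channels within a tissue. In NP 0 of 9 members were called, against 0.25% of all genes tested (38 genes, or 0.232%, higher and 3, or 0.0183%, lower). No member had groups of 5 that did not overlap, against 4.5% of genes. At an unadjusted p under 0.05, 2 of 9 members passed (Trpv4 and Tmem63b), against 14.1% of genes. Trpv4 read 20.4, 24.3, 18, 15.3 and 19.4 in NP MDL-800 libraries 15, 18, 19, 20 and 22. Of these, 4 lay above the highest vehicle library (17.7) and 1 within the vehicle range. The difference, MDL-800 minus vehicle, was 0.51 with SE 0.16 (95% interval 0.16 to 0.87, limma adjusted p = 0.18). Piezo1 read 11.5, 18.8, 13.2, 14.7 and 15.1, with 3 libraries above the vehicle range, at 0.31 with SE 0.15 (limma adjusted p = 0.395). Tmem63b read 29.2, 29.9, 27.9, 29.2 and 33, with only library 19 inside the vehicle range, at 0.14 with SE 0.06 (limma adjusted p = 0.324).

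The NP groups also differed in a property of the libraries, the slope of expression on GC content. For it each gene was taken relative to its mean over the 20 libraries, so slopes are relative to the average library. Transcripts of Piezo1 and Trpv4 are 59% GC, where the median gene tested is 49.3% and Trpm7 is 40.1%. The slope of expression on GC was -0.28, -0.28, -0.03, -0.05 and -0.01 log2 per 10 percentage points in NP vehicle and 0.02, 0.06, 0.06, 0.09 and 0.09 in NP MDL-800, so the 2 groups did not overlap. NP vehicle libraries 1 and 2, at -0.28, had the lowest Trpv4 and the lowest Piezo1 of NP. Over the 10 NP libraries r between level and slope was 0.85 for Trpv4 and 0.84 for Piezo1, values that also hold the difference between treatments. With group means taken out, over all 20 libraries, r was 0.52 for Trpv4, 0.59 for Piezo1 and -0.01 for Tmem63b. With the GC trend taken out of each library the NP difference was 0.20 for Trpv4 (limma adjusted p = 0.648) and -0.00 for Piezo1 (0.999), and for Tmem63b it turned to -0.07 (0.88). Since the slopes of the NP groups do not overlap, treatment and GC slope cannot be told apart in NP.

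**Figure D4:**
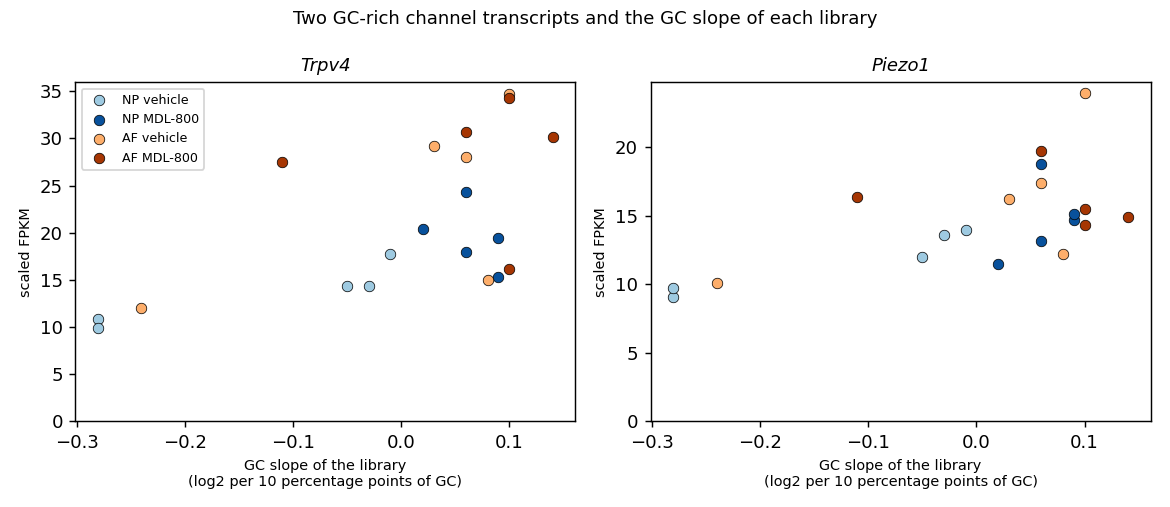
Scaled FPKM of Trpv4 and Piezo1 (linear axes from 0) against the slope of log2 expression on gene GC content of each library, colored by group, 1 point per library. Slopes use each gene relative to its mean over the 20 libraries. The NP vehicle libraries lie at slopes of -0.28 to -0.01 and the NP MDL-800 libraries at 0.02 to 0.09, and the lowest NP values sit at the lowest slopes.

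The other members in NP stayed near 0: Kcnk2 at -0.08 (95% interval -0.35 to 0.20), Trpc1 at -0.08 (-0.35 to 0.20), Trpm7 at 0.00 (-0.28 to 0.29), Tmem63a at 0.11 (-0.07 to 0.28), Trpv2 at -0.04 (-0.42 to 0.35) and Piezo2 at 0.02 (-0.17 to 0.21). These intervals leave room for changes of up to about their bounds. For Piezo2 and Trpv2 the log2 scale with a pseudocount of 1 also compresses NP levels under 1 FPKM. The ratio of Trpc1 to Trpv4 was 0.618 ± 0.0565 in NP MDL-800 (SD, n = 5), and its range, 0.564 to 0.697, overlapped that of NP vehicle, 0.651 to 1.32.

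In AF 0 of 9 members were called, against 0% of genes, and at an unadjusted p under 0.05 limma gave 0 of 9 against 1.65%. Trpv4 read 34.3, 27.5, 30.7, 30.1 and 16.1 in AF MDL-800 libraries 25, 27, 28, 29 and 30, all within the vehicle range, at 0.28 with a 95% interval of -0.40 to 0.95. Piezo1 read 15.5, 16.4, 19.7, 14.9 and 14.3, also within it, at 0.06 (-0.38 to 0.51). Piezo2 had the largest point value, -0.30 (-1.12 to 0.52). The difference of the treatment effect between the tissues was called for 0 of 9 members against 0% of genes, and at an unadjusted p under 0.05 limma gave 0 of 9 against 3.73%. For Trpv4 that difference was 0.23 (-0.52 to 0.99) and for Piezo1 0.24 (-0.30 to 0.78), so an effect particular to either tissue was not shown.

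The wider setting was described with lists of genes. Of 27 related channels, 14 were measured well enough to test. Between NP and AF under vehicle 6 were higher and 5 lower, with a median of -0.11. Over all genes tested 21.8% were higher and 33.9% lower, with a median of -0.08, and the counts of each list below stand against these shares. Panx1, a pannexin channel that releases ATP, was 0.484 ± 0.297 in NP and 7.32 ± 3.72 in AF under vehicle. It reached 1 FPKM in 0 of 10 NP libraries, as did Mdfi and Slc8a1 below, and Rcan2 did in 2 of 10. These 4 entered the test through AF and are given as levels, with no test. The list counts of lower genes still hold them, and also Trpc6, Ankrd1 and Foxf2, whose NP means were under 1 FPKM with either treatment. Kcnma1, the large-conductance calcium-activated potassium channel, was 6.04 ± 2.32 and 38.4 ± 14.4 (-2.45, SE 0.33, limma adjusted p = 0.000137), and Lrrc8c, a subunit of volume-regulated anion channels, 3.65 ± 1.05 and 11.1 ± 1.9 (-1.39, SE 0.18, limma adjusted p = 8.37e-05). The 13 not tested include Tmc1, Kcnk4, Trpv1, Trpa1 and Asic1, whose NP and AF vehicle means were all under 1 FPKM.

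Of 7 partners of these channels, 6 were tested, with 2 higher and 2 lower in NP and a median of -0.04. Mdfi, an auxiliary subunit of PIEZO channels, read 0.325 ± 0.307 in NP against 7.63 ± 5.97 in AF. The related Mdfic, in the same list, was higher in NP at 28.3 ± 5.01 against 17.7 ± 2.2 (0.65, SE 0.13, limma adjusted p = 0.00162). Stom, a membrane protein that tunes ion channels, was lower in NP at 22.2 ± 3.88 against 79 ± 10.2 (-1.79, SE 0.13, limma adjusted p = 5.85e-06). Pacsin3, which binds TRPV4 and holds it at the membrane, was higher in NP at 83.7 ± 22.2 against 31 ± 14.5 (1.47, SE 0.29, limma adjusted p = 0.00135).

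Of 15 genes of calcium stores and entry, 12 were tested, with 4 higher and 5 lower (median -0.21), against 21.8% and 33.9% of all genes. The sodium-calcium exchanger Slc8a1 was 0.267 ± 0.169 in NP and 4.29 ± 1.16 in AF. Orai2, a store-operated pore, was 1.62 ± 0.484 and 8.59 ± 2.67 (-1.85, SE 0.21, adjusted p = 4.14e-05). The plasma membrane calcium pump Atp2b4 was the opposite, at 130.7 ± 8.3 against 57.4 ± 10.3 (1.19, SE 0.13, limma adjusted p = 3.38e-05). Among 14 genes of calcium-calcineurin signalling 3 were higher and 6 lower in NP (median -0.34). Calm2, a calmodulin gene, was 774.4 ± 61.5 in NP and 418.3 ± 80.5 in AF (0.91). Nfatc4, a calcineurin target, was lower in NP (-1.28, limma adjusted p = 0.000283). Rcan2, a calcineurin regulator, read 0.723 ± 0.572 in NP and 8.93 ± 2.97 in AF.

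YAP, TAZ and their partners and targets numbered 26, all tested, with 10 higher and 8 lower in NP (median 0.16), against 21.8% and 33.9% of all genes. Axl and Nt5e, both listed as targets, were lower in NP (16.9 ± 5.17 against 109.3 ± 32, and 5.06 ± 0.89 against 43.3 ± 16.7), at -2.61 and -2.78. Crim1, another target, was higher (39.5 ± 1.9 against 17.2 ± 2.97, at 1.17), so the list did not move one way.

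**Figure D5:**
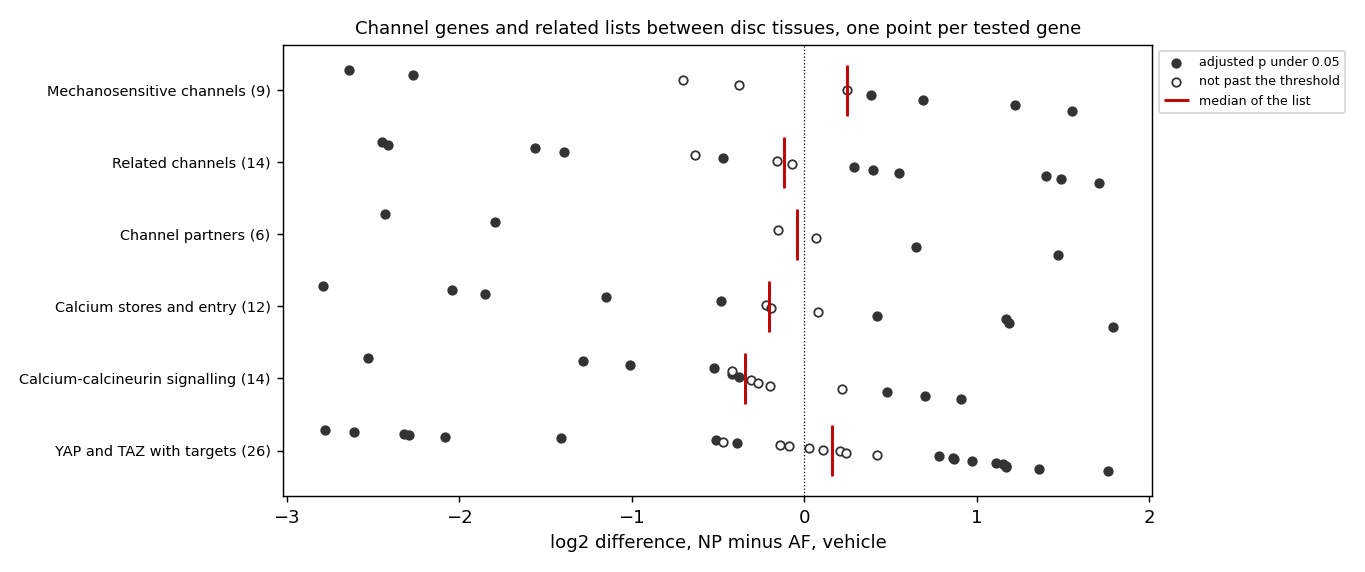
Log2 difference, NP minus AF under vehicle, for the 9 channels and each tested gene of the 5 related lists. Filled points have an adjusted p under 0.05, open points do not, and the red line is the median of the list. Each list holds genes on both sides of 0, with medians between -0.34 and 0.25.

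With MDL-800 none of the genes in these lists was called in NP, in AF or in the difference between tissues by limma. The smallest p in NP belonged to calcium genes. Itpr3, a receptor that releases stored calcium, was 125.7 ± 15.1 with vehicle and 174.9 ± 16.6 with MDL-800 (0.48, SE 0.10, limma adjusted p = 0.0722), and Orai1, the main store-operated pore, 9.41 ± 2.84 and 16 ± 1.04 (0.75, SE 0.18, adjusted p = 0.0906). With the GC trend taken out they were at 0.23 (adjusted p = 0.242) and 0.46 (0.129). When tests were limited to genes at 1 FPKM in every library, both passed (adjusted p = 0.0365 and 0.0469). Pacsin3 was 83.7 ± 22.2 and 115.0 ± 11.7 (0.49, adjusted p = 0.226) and Trpm4, a calcium-activated cation channel, 57.8 ± 16.4 and 78.5 ± 5.09 (0.48, adjusted p = 0.227). Os9, which retains TRPV4 in the endoplasmic reticulum (0.26), Lrrc8a, the obligate subunit of volume-regulated anion channels (0.23), Amotl2 (0.79), Gadd45b (0.73) and Ppp3cb (-0.26) had adjusted p between 0.13 and 0.303. Over the alternative processings the difference was 0.19 to 0.50 for Pacsin3, 0.27 to 0.48 for Trpm4 and 0.06 to 0.28 for Os9. It was 0.12 to 0.23 for Lrrc8a, 0.58 to 0.87 for Amotl2, 0.52 to 0.76 for Gadd45b and -0.30 to -0.16 for Ppp3cb. None of these genes was called in those fits.

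Among themselves the channels also varied from library to library, here described by Pearson's r over 20 libraries with group means taken out, values that share library, depth and GC slope. Piezo1 and Trpv4 had the highest r (0.79), Kcnk2 and Tmem63b had 0.60, Piezo2 and Trpv4 0.60, and Piezo1 and Kcnk2 -0.51. Of all tested genes the most alike to Piezo1 were Gas2l1, Vasn and Tnfrsf1a (r = 0.900, 0.889 and 0.872), and to Trpv4 Selenon, Cspg4 and Fam129b (0.908, 0.904 and 0.902). Piezo2 was most like 1810041L15Rik, Vat1l and Trpm3 (0.881, 0.872 and 0.857). Their NP vehicle means were 0.131, 0.368 and 0.126, under 1 FPKM like that of Piezo2 (0.116). The r values of Piezo2, also that with Trpv4, therefore rest mostly on the AF libraries. Trpv2 was most like Baiap3, Cyp4f18 and Akna (0.954, 0.948 and 0.947), of which Cyp4f18 read 1.05 in NP vehicle and 12.8 in AF vehicle. Kcnk2 was most like Ptn, the growth factor pleiotrophin (0.928), Lysmd2 (0.917) and Cpxm2 (0.913), and Ptn read 200.5 in NP vehicle and 45 in AF vehicle. Tmem63b was most like Hspb8, Clip4 and Mapt (0.898, 0.879 and 0.847), Tmem63a like Sun1, Agpat4 and Pi4k2a (0.876, 0.875 and 0.863), Trpc1 like 4933421O10Rik, Btbd19 and Tdrkh (0.871, 0.859 and 0.859), and Trpm7 like Rbpj, Spin1 and Tbc1d12 (0.897, 0.888 and 0.885).

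Depth was estimated, not given: 13.0 to 22.5 M reads per library (M, mega) by the steps in low values of single-exon genes. No 2 libraries held identical values. Markers of neighbouring tissue (muscle, red cells, neutrophils, macrophages, bone, osteoclasts, fat, B cells and endothelium) had higher medians of their summed levels in AF than in NP for each of these 9 lists under both treatments.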

How the data were processed

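RNA was measured in 20 libraries, 4 groups of 5, made from total RNA after ribosomal RNA depletion with a stranded kit, per the labels' protocols. The authors deposited one table of FPKM values for 51789 genes. STAR 2.7.11b and mm10 are named in the submitters' processing notes; the counting program, its annotation and its use of strand are not given in the sources used here. All columns were matched to samples by name.

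FPKM was divided by a median-ratio factor per library (0.933 to 1.062). The 16383 genes that reached 1 FPKM in 5 or more of the 20 libraries were tested with limma 3.58.1 in R 4.3.3 (lmFit, eBayes with trend) on log2(scaled FPKM + 1), two-sided, adjusted over all 16383 (Benjamini-Hochberg) and called at an adjusted p under 0.05. Log2 differences are on that scale, which understates changes of low genes. Only the groups compared entered a fit, and all 4 entered the difference of treatment effects. Depth, 13.0 to 22.5 M reads, is an estimate from steps in low values, checked on simulated data, as was the test. The alternatives covered the pseudocount, the low-value filter, scaling, a GC trend (99.8% of tested genes have a GC content in GENCODE M21), weights, the eBayes trend, the samples in the fit, each library left out and a block.

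The members and the lists were chosen with earlier results of these data known. All members were named. From each list the 3 genes with the smallest p between tissues under vehicle and up to 2 with the smallest p for MDL-800 in NP were named, and for each member the 3 genes with the highest r. Other list genes are named only as examples of those left untested or as limits to a count or to a named gene. Correlations across libraries are Pearson's r with no p. Sequences are from RefSeq; Piezo2 is not shown by sequence. Some marker and list results are not reported here.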

Additional observations from a re-analysis of the deposited data

Results flagged for a closer look

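Among 128 groups of 5 libraries (32 named genes), 8 had a single library far from the other 4 (Dixon's criterion); chance flags about 1 in 20. Among the channels, Trpv2 was 1.4 in NP vehicle library 6, the others being at 0.268 to 0.516. Kcnk2 was 34.5 in NP vehicle library 1, against 26.5 to 27.2. NP MDL-800 library 18 was high for Trpc1 (15.8, others 10.7 to 11.6) and Trpm7 (47.5, others 31.6 to 35.6). The calcineurin regulator Rcan2 was 1.72 in NP vehicle library 3 (others 0.332 to 0.661) and 1.92 in NP MDL-800 library 15 (others 0.373 to 0.525). The calcineurin subunit gene Ppp3cb was 63 in AF vehicle library 12 (others 43.5 to 47.4), and Gadd45b was 35.9 in NP vehicle library 2 (others 17.4 to 19).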

How the results depend on the processing

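Between tissues the number of channels called under vehicle was 4 to 7 over 13 alternatives and 6 to 8 over single omissions, and under MDL-800 5 to 8 and 7 to 8. The lowest counts came with genes at 1 FPKM in all 20 libraries, where Piezo2 and Trpv2 were not tested. Kcnk2, Trpc1, Tmem63a and Tmem63b were called under vehicle in every fit run. So were Piezo2 and Trpv2 where tested, but these entered the tests through AF and had to differ. Trpv4 passed with unscaled FPKM (-0.76), with all 4 groups in the fit (-0.70) and with array weights (-0.80), and under MDL-800 with unscaled FPKM and with weights (both -0.55) and without NP library 18 (-0.54). For MDL-800 in either tissue, and for the difference of its effects, 0 channels were called in every fit run. The genes called in NP, 41, ranged from 4 to 230 over alternatives and from 2 to 189 over omissions.

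Some uncalled values changed sign. Piezo1 between tissues under MDL-800 was 0.09 with quantile normalization and 0.04 with the 75th percentile. With the GC trend removed, the MDL-800 difference in NP was 0.01 for Trpc1, -0.01 for Tmem63a and -0.07 for Tmem63b, that in AF -0.01 for Piezo1, and the difference of effects -0.09 for Tmem63b. Array weights gave -0.02 for Piezo1 in AF and -0.01 for the difference of effects of Tmem63b, and the protein-coding sum gave -0.02 for Kcnk2 in AF. Leaving out a library also turned values near 0, all uncalled. The MDL-800 difference in NP ranged from -0.02 to 0.07 for Piezo2, -0.12 to 0.11 for Trpv2 and -0.14 to 0.02 for Kcnk2. In AF it ranged from -0.08 to 0.22 for Piezo1, -0.13 to 0.14 for Trpv2, -0.13 to 0.19 for Kcnk2 and -0.14 to 0.02 for Tmem63a. The difference of effects ranged from -0.18 to 0.13 for Trpv2, -0.19 to 0.05 for Trpc1, -0.26 to 0.05 for Kcnk2 and -0.01 to 0.15 for Tmem63b. The causes were not tested.

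Column names share numbers between NP and AF libraries, 5 with vehicle and 3 with MDL-800, with no label saying that a number marks an animal. Deviations of same-numbered libraries correlated at -0.178 to 0.285, which does not settle whether they are paired. The titles give each group its own replicate numbers, so the main fits assumed no pairing. Whether same-numbered libraries come from the same mice is not stated. A replicate block by the shared number was chosen after seeing the data. It gave 7 channels called under vehicle, with Trpv4 at -0.70 (limma adjusted p = 0.0466). Under MDL-800, on 3 pairs, it gave 6, with Trpm7 at 0.28 (limma adjusted p = 0.164), and for the difference of effects 0.

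Without counts or a stated depth, sampling error of the lowest levels, Piezo2 and Trpv2 in NP, is unknown.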
